A study of Mus musculus with 5 samples.

Results

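A group of 10 interferon-induced genes was examined in the embryonic cortex after loss of Uhrf1: Ifi27, Ifitm1, Ifitm2, Ifitm3, Ifit1, Ifit2, Ifit3, Isg15, Bst2 and Irf7. They form a list of names chosen with earlier results of these data known. All 10 were found among the 23997 gene names of the expression table. Other family members and other interferon-stimulated genes in that table are outside this list. Type I interferons bind a receptor at the cell surface that activates the kinases Jak1 and Tyk2, and these pass the signal to a complex of transcription factors that includes Irf9. This complex binds a short DNA element, the interferon-stimulated response element, in the promoters of target genes. The targets include proteins that hold back viruses at membranes (Ifitm proteins, Bst2), that bind viral RNA (Ifit proteins), a ubiquitin-like modifier (Isg15) and Irf7, a transcription factor that drives more interferon.

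The libraries came from full cortex of C57BL/6 mouse embryos at embryonic day 16 (E16), taken as total RNA depleted of ribosomal RNA. There were 3 control libraries (MG15, MG16 and MG17; Emx1Cre/+ Uhrf1+/-) and 2 conditional knockout (cKO) libraries (MG18 and MG19; Emx1Cre/+ Uhrf1-/-). Uhrf1 guides maintenance methylation of CpG dinucleotides by Dnmt1 after replication, and the comparison asks how the transcriptome differs when it is missing. All 5 libraries carried the Cre. The study also gives the controls as Uhrf1fl/+ and the cKO as Uhrf1fl/fl, so alleles are lost only where the Cre acts. Emx1-Cre acts in progenitors of the dorsal telencephalon, so that vessels, blood, microglia, meninges and immigrating interneurons in the same tissue keep the gene. In such bulk RNA, fewer cells of a type and less RNA per cell cannot be told apart. The study's methods call the libraries of a group biological replicates, without saying whether embryos were pooled or shared a litter.

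Values are FPKM (fragment numbers set against transcript length and library depth), and differences are cKO minus control on log2(FPKM + 0.1), tested with limma over the 14697 genes that averaged 0.1 FPKM or more. A gene is called here at an unadjusted p under 0.05 with a change of more than 2-fold, and calls at an adjusted p under 0.05 are given beside it. Uhrf1 itself was at 7.24, 13.2 and 13.0 FPKM in controls and at 2.75 and 2.61 FPKM in cKO (log2 difference -1.97, SE 0.28, adjusted p = 0.00767). The markers of the labelled tissue were present, with 12 of 12 genes of dorsal telencephalon measured and Neurod6 at 589 FPKM or more in each library.

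Before the values, the DNA at the start sites of these genes is shown, because the interferon-stimulated response element defines the pathway. Promoters of 9 of the 10 genes, all but Ifi27, were found in the RefSeq table (GRCm38.p6). Each ran from 250 bases before to 50 bases after the start site. Of these 9, 6 held the core GAAANNGAAA or its reverse TTTCNNTTTC, searched on both strands with overlapping matches allowed. Of all 32851 promoters in the table, 3.44% held it. The 30-base windows around the matches are given 5′ to 3′ on the strand of the gene, with the matches in capitals.
Ifitm2, chr7:140955988-140956017, minus strand: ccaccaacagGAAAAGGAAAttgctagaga
Ifitm3, chr7:141010714-141010743, minus strand: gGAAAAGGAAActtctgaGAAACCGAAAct
Ifit1, chr19:34640785-34640814, plus strand: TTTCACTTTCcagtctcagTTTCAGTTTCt
Ifit3, chr19:34583363-34583392, plus strand: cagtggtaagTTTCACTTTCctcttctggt
Ifit3, chr19:34583397-34583426, plus strand: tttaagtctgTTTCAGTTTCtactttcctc
Isg15, chr4:156200871-156200900, minus strand: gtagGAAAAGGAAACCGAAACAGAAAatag
Bst2, chr8:71537580-71537609, minus strand: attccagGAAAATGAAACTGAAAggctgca

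In Isg15 3 overlapping matches ran from base -78 to base -57 before the start site, and in Ifit1 2 matches lay between -104 and -76. In Ifitm3 both matches lay just after the RefSeq start site, from base 3 to base 29. Ifitm1, Ifit2 and Irf7 had no match to these letters in this window. Of the 6 genes with a match, 2 were called higher in cKO (Ifitm3 and Isg15), beside 2.88% of all genes tested. Another 3 did not pass the test (Ifitm2, Ifit3 and Bst2) and Ifit1 was too low to be tested. Of the 3 genes with no match, Ifitm1 was called higher, Ifit2 was not called and Irf7 was not tested.

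In the cKO cortices, Ifi27, Ifitm1, Ifitm3 and Isg15 were higher than in controls, whereas Ifitm2, Ifit2, Ifit3 and Bst2 did not pass the test, and Ifit1 and Irf7 were too low to be tested. Of the 8 genes that averaged 0.1 FPKM or more, 4 were called higher and 0 lower, beside 2.88% and 1.16% of all genes tested. As the list was chosen with earlier results of these data known, its counts and median are a description and not a test. Only Ifi27 had an adjusted p under 0.05, a threshold passed by 1.1% of all genes tested in the higher direction and 0.163% in the lower. In these same 4 genes both cKO libraries lay above every control, which held for 14.5% of all genes tested. Isg15 passed the filter on low values only through the cKO libraries, so its presence among the genes tested is not independent of its direction. The median log2 difference of the 8 genes was 1.09, against -0.02 over all genes tested. They were low in absolute terms, since only Ifitm2 (23.97 FPKM over the 5 libraries) exceeded the median of all genes tested, 9.02 FPKM.

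**Figure D1:**
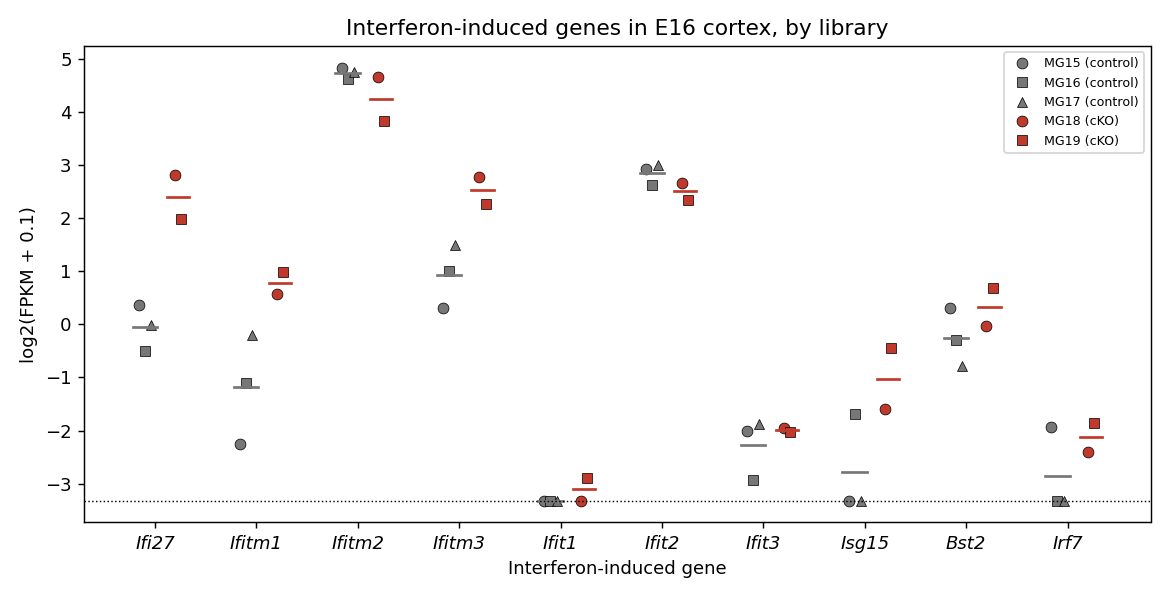
Level of each of the 10 genes in each library, as log2(FPKM + 0.1), with control libraries in grey, cKO libraries in red, the group mean of the log2 values as a bar and a listed value of 0 at the dotted line. Both cKO libraries sit above all 3 controls for Ifi27, Ifitm1, Ifitm3 and Isg15 and for no other gene of the group.

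Ifi27 encodes a small membrane protein and is one of the genes most widely induced by type I interferon. It was measured at 1.19, 0.607 and 0.899 FPKM in controls and at 6.97 and 3.86 FPKM in cKO. Both cKO libraries were high, and the groups did not overlap. The log2 difference was 2.45 (SE 0.36, 95% confidence interval 1.64 to 3.25, adjusted p = 0.00961, limma), the 126th highest of the 14697 genes. The call at the unadjusted p held under each alternative tried, including with each library left out, while the adjusted p rose to 0.0507 without MG17, 0.277 without MG18 and 0.141 without MG19 and lay between 0.00659 and 0.0361 under the other alternatives. Ifi27 lies on chromosome 12 (GRCm38, chr12:103434211-103440239, plus strand, 9 annotated transcripts).

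No gene tested around Ifi27 was called with it. Of the protein-coding genes that lay wholly or in part within 100000 bases of it, 4 were tested, with log2 differences from -0.03 to 0.87. Its nearest neighbour tested, Ddx24, an RNA helicase gene, was at 48.8, 47.4 and 41.4 FPKM in controls, and at 44.5 and 45.3 FPKM in cKO. Of its paralogs, Ifi27l2b was listed at 0 in each library, and Ifi27l2a was listed at 0 in all but MG18, where it was at 0.499 FPKM.

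The Ifitm proteins sit in plasma and endosomal membranes and block the fusion of enveloped viruses. The 3 of them in this group are neighbours on chromosome 7: Ifitm2 (chr7:140954837-140955987, minus strand), Ifitm1 (chr7:140967221-140969825, plus strand) and Ifitm3 (chr7:141009586-141010770, minus strand), with 11233 bases between Ifitm2 and Ifitm1 and 39760 between Ifitm1 and Ifitm3. Ifitm1 and Ifitm3 were called higher and Ifitm2 was not.

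Ifitm3 was at 1.13, 1.92 and 2.72 FPKM in controls and at 6.76 and 4.76 FPKM in cKO. The highest control lay below the lower cKO library. Ifitm3 rose as the estimated depth fell, in the order MG15, MG16, MG17, MG19 and MG18. Every control was estimated deeper than both cKO libraries, and the part of depth in these levels was not tested. The estimates are rough, with MG17 and MG19 close together at about 10000000 and 9800000 fragments. The log2 difference was 1.59 (SE 0.35, 95% confidence interval 0.80 to 2.39), a 3.01-fold change with an adjusted p of 0.0813 by limma. Without MG18 the unadjusted p was 0.0505 and Ifitm3 was no longer called.

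Ifitm1 was at 0.111, 0.367 and 0.766 FPKM in controls and at 1.38 and 1.89 FPKM in cKO. The controls were spread over a wide range, rising as the estimated depth fell, but all lay below both cKO libraries. Fragments were few, with estimates of 4.1, 5.17 and 6.76 in controls and 9.87 and 16.4 in cKO. The log2 difference was 1.97 (SE 0.55, 95% confidence interval 0.73 to 3.20, adjusted p = 0.201, limma), and Ifitm1 was not called without MG19 (unadjusted p = 0.0908) or with a pseudocount of 1 FPKM, where the log2 difference was 0.92.

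Ifitm2, by far the most abundant of the group, did not pass the test. It was at 28.6, 24.7 and 26.9 FPKM in controls and at 25.3 and 14.3 FPKM in cKO. MG18 lay within the controls and MG19 below them. The log2 difference was -0.49 (SE 0.23, 95% confidence interval -1.01 to 0.03, adjusted p = 0.460, limma), and it was -0.08 without MG19 and -0.90 without MG18 (unadjusted p = 0.0043, limma). Ratios within each library were computed after the values were seen and are given as a description. Ifitm3 as a percentage of Ifitm2 was 3.96%, 7.75% and 10.1% in controls and 26.7% and 33.3% in cKO. Ifitm1 as a percentage of Ifitm2 was 0.386%, 1.48% and 2.85% in controls and 5.46% and 13.3% in cKO, while as a percentage of Ifitm3 it overlapped between the groups (9.75%, 19.1% and 28.2% against 20.4% and 39.8%).

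**Figure D2:**
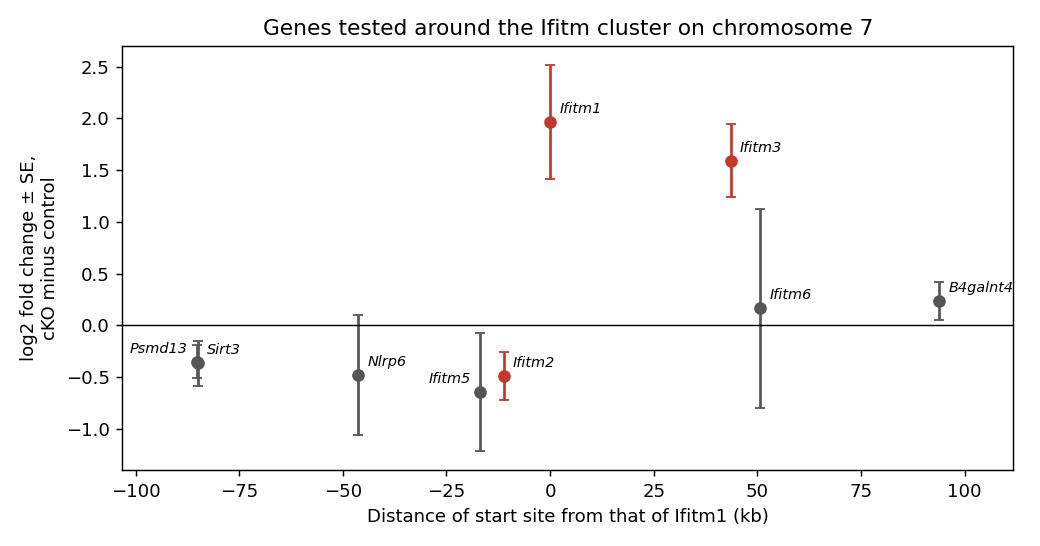
Log2 difference (cKO minus control, with its SE) of each gene tested around the Ifitm cluster against the distance of its start site from that of Ifitm1, with Ifitm1, Ifitm2 and Ifitm3 in red and other genes in grey. Ifitm1 and Ifitm3 stand at 1.97 and 1.59, while Ifitm2, on the other side of Ifitm1 from Ifitm3, lies at -0.49.

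Nor did the other genes at this locus pass the test. Of the genes wholly or in part within 100000 bases of Ifitm1, 6 outside the group were tested and 0 were called, with log2 differences from -0.64 (Ifitm5, which is expressed in bone-forming cells) to 0.24 (B4galnt4). The family members Ifitm5 and Ifitm6 both lay under 1 FPKM in each library. The annotation places Gm45717 over Ifitm2 on the same strand, sharing 268 exonic bases, so that fragments of the pair there cannot be told apart. Ifitm genes are close copies, and the authors discarded fragments that mapped to several places, so that their levels hold only the parts that are unique to each gene.

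CpG dinucleotides, the sites at which Uhrf1 acts, were counted just upstream of these 3 genes. The 200 bases from -250 to -51 before each RefSeq start site (GRCm38.p6, 5′ to 3′ on the strand of the gene) are given to show where they lie, with each CpG in capitals. DNA methylation was not analysed here.
Ifitm1, chr7:140967826-140968025, plus strand: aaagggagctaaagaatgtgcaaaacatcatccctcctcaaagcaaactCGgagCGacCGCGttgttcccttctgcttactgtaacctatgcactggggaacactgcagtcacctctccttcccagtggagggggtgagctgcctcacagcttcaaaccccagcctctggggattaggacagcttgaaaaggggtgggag
Ifitm2, chr7:140956012-140956211, minus strand: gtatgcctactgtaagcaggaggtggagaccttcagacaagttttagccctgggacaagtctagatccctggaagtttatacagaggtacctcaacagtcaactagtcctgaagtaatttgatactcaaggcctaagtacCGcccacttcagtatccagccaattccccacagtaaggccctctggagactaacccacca
Ifitm3, chr7:141010795-141010994, minus strand: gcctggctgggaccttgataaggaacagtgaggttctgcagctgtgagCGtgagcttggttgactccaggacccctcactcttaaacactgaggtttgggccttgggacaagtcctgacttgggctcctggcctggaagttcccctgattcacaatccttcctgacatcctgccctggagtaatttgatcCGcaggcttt

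These stretches held 4 CpGs in Ifitm1, 1 in Ifitm2 and 2 in Ifitm3. The Ifitm1 stretch lies inside the annotated span of the gene, which begins further upstream, at base 140967221 of chromosome 7. Over the whole promoter windows the 9 genes ranged from 1 CpG (Ifit3) to 11 (Bst2 and the second Ifit2 promoter), against a median of 7 over all promoters of the table. Ifitm1 and Ifitm3 held 5 CpGs each and Ifitm2 held 4, and a link between the number of CpGs and the changes was not tested.

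The Ifit proteins bind viral RNA and limit its translation. Ifit2, Ifit3 and Ifit1 lie in this order on chromosome 19 (chr19:34550694-34576419, chr19:34583531-34588731 and chr19:34640871-34650009, all plus strand), and none of them was called. Ifit2, the second most abundant of the group, was at 7.49, 6.07 and 7.94 FPKM in controls and at 6.29 and 5.02 FPKM in cKO. MG18 lay among the controls and MG19 just under the lowest of them, and the log2 difference was -0.34 (SE 0.21, 95% confidence interval -0.81 to 0.14, adjusted p = 0.567, limma).

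Ifit3 was at 0.148, 0.0306 and 0.173 FPKM in controls and at 0.157 and 0.145 FPKM in cKO. The cKO libraries lay within the range of the controls (log2 difference 0.28, 95% confidence interval -0.90 to 1.45, adjusted p = 0.858, limma). Ifit1, which recognises the cap of foreign RNA and is commonly used as a marker of the interferon response, was listed at 0 in all libraries but MG19, where it stood at 0.0349 FPKM. At the depth estimated for MG19 that is about 0.91 fragment, so that a change of Ifit1 was not detectable. Of the Ifit3 values, 4 of 5 rest on about 3 fragments or fewer, and only in MG15 was the estimate higher, at 10.8.

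Isg15 encodes a ubiquitin-like protein that is joined to other proteins in interferon-treated cells (chr4:156199424-156200818, minus strand). It was listed at 0, 0.212 and 0 FPKM in controls and at 0.231 and 0.631 FPKM in cKO. The groups did not overlap, but the control MG16 lay just below the cKO library MG18, and the estimated number of fragments was at most 4.67 in any library. The log2 difference was 1.75 (SE 0.65, 95% confidence interval 0.28 to 3.22, adjusted p = 0.359, limma). Its size depended on the pseudocount, at 0.41 with 1 FPKM and 3.80 with 0.01 FPKM. Isg15 was not called without MG15, without MG17 or without MG19, with quantile normalization, or with a pseudocount of 1 FPKM.

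Bst2, also known as tetherin, holds budding virus particles at the cell surface (chr8:71534255-71537456, minus strand). It was at 1.15, 0.716 and 0.482 FPKM in controls and at 0.886 and 1.51 FPKM in cKO. The groups overlapped, as MG15 exceeded MG18. Fragments were estimated at 38.1, 9.07 and 3.81 in controls and at 5.68 and 11.7 in cKO. The log2 difference was 0.58 (SE 0.41, 95% confidence interval -0.34 to 1.504, adjusted p = 0.605, limma).

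Irf7, the transcription factor that amplifies the response (chr7:141262706-141266481, minus strand), had a mean of 0.0856 FPKM and was not tested. It was at 0.163, 0 and 0 FPKM in controls and at 0.0883 and 0.177 FPKM in cKO, and the groups overlapped. In a fit with no filter on low values its log2 difference was 0.73 (adjusted p = 0.607, limma) and that of Ifit1 0.22 (adjusted p = 0.779). The last 45 bases of Irf7 overlap Phrf1 on the opposite strand. Although Irf7 lies on the same chromosome as the Ifitm genes, 251935 bases separate it from Ifitm3.

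Near Isg15, Ifit2 and Irf7, single genes outside the group were called among 8, 3 and 9 tested that lay wholly or in part within 100000 bases. Beside Ifit2 it was Ch25h, which makes the antiviral sterol 25-hydroxycholesterol, lower in cKO, at 0.270, 0.131 and 0.212 FPKM in controls and listed at 0 in both cKO libraries (adjusted p = 0.268, limma), so that it passed the filter on low values only through the controls. Beside Isg15 it was Samd11 (log2 difference 1.29), and beside Irf7 it was Drd4, a dopamine receptor gene (log2 difference 1.20). Around Bst2, Ifit1 and Ifit3, 0 of 11, 0 of 1 and 0 of 2 such genes were called. Of all genes tested, 2.88% were called higher and 1.16% lower.

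**Figure D3:**
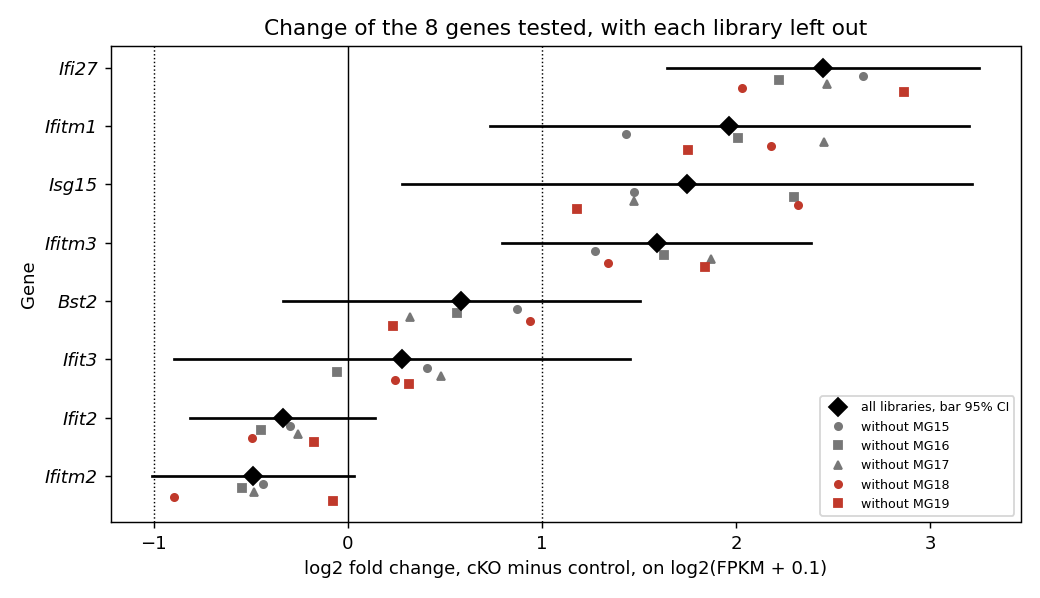
Log2 difference (cKO minus control) of the 8 genes tested, as a black diamond with its 95% confidence interval, and the value with each library left out as small symbols (grey for a control, red for a cKO library); dotted lines mark 2-fold changes. The intervals of Ifi27, Ifitm1, Isg15 and Ifitm3 lie above 0, and those of Bst2, Ifit3, Ifit2 and Ifitm2 include it.

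The steps that lead to these genes were then examined. Of 21 interferon genes in the table, 19 were listed at 0 in each library, including Ifnb1 and the 13 numbered Ifna genes. The exceptions were Ifnab, at 0.117 FPKM in the control MG16, and Ifng, at 0.106 FPKM in the cKO MG18. Interferon transcripts were thus near or under the limit of detection in both groups, and at this depth low levels would have been missed.

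Receptor and signalling genes were present at higher levels, and none of the 12 tested were called (median log2 difference 0.10). Ifngr2, a chain of the type II interferon receptor, was at 51.5 to 62.7 FPKM in controls and at 51.4 and 69.2 FPKM in cKO (log2 difference 0.03), and Jak2, the kinase bound to it, was at 32.2 to 36.7 FPKM in controls and at 28.0 and 31.6 FPKM in cKO (log2 difference -0.21).

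Of the other interferon regulatory factors 5 were tested and 0 were called, with a median of 0.36. In 3 of the 5, Irf1 among them, both cKO libraries lay above every control. In 1, Irf3, both lay below, beside 14.5% and 16.3% of all genes tested. Irf3, which is activated by viral RNA, was at 11.4, 12.7 and 16.4 FPKM in controls and at 9.26 and 10.4 FPKM in cKO, below all controls (log2 difference -0.44, adjusted p = 0.443, limma). Irf1 was at 0.645 to 0.909 FPKM in controls and at 1.08 and 1.06 FPKM in cKO (log2 difference 0.36, adjusted p = 0.673, limma). The enzymes that attach or remove Isg15 gave 0 calls among 5 tested, with a median of 0.13. Ube2l6, the conjugating enzyme, was at 5.15 to 8.57 FPKM in controls and at 8.22 and 6.03 FPKM in cKO, and Herc6, the ligase, at 0.323 to 0.616 FPKM in controls and at 0.456 and 0.511 FPKM in cKO.

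A broader list of 60 other interferon-stimulated genes was examined next. Of these 60, 6 were listed at 0 in each library and 39 were tested. Of the 39, 2 were called higher (Oas2 and Cxcl10) and 1 lower (Mndal), beside 2.88% and 1.16% of all genes tested. The median log2 difference was 0.06. In 9 of the 39 both cKO libraries lay above every control and in 3 below, beside 14.5% and 16.3% of all genes tested. Oas2, an enzyme that makes the activator of the RNA-degrading RNase L, was listed at 0 in all 3 controls and was at 0.473 and 0.585 FPKM in cKO (adjusted p = 0.0296, limma). Cxcl10, a chemokine that attracts T cells, was listed at 0, 0.0713 and 0 FPKM in controls and at 1.12 and 0.327 FPKM in cKO (log2 difference 2.59, SE 0.58, adjusted p = 0.0861, limma).

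Oas2 and Cxcl10, like Isg15, reached the filter on low values only through the cKO libraries. Mndal, which encodes a nuclear protein of the interferon-inducible Ifi200 family, was at 0.571, 0.876 and 0.295 FPKM in controls and at 0.118 and 0.208 FPKM in cKO (log2 difference -1.30, SE 0.48, adjusted p = 0.354, limma). Mx1 and Rsad2, which are often used to score the response, were low, with overlapping groups. Mx1 did not exceed 0.0725 FPKM in any library, and Rsad2 was at 0.103, 0.417 and 0.0488 FPKM in controls and at 0.0279 and 0.134 FPKM in cKO.

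Among genes for nucleic acid sensing, 11 were tested and 1 was called higher, beside 2.88% of all genes tested. It was Tlr7, an endosomal receptor for single-stranded RNA, at 0.145, 0.151 and 0.473 FPKM in controls and at 0.600 and 0.599 FPKM in cKO (log2 difference 1.09, adjusted p = 0.426, limma). Tbk1, the kinase that activates Irf3, was at 16.6 to 19.5 FPKM in controls and at 17.3 and 15.9 FPKM in cKO, and Mavs, the mitochondrial adaptor of the RNA sensors, was at 1.503 to 2.51 FPKM in controls and at 1.79 and 1.31 FPKM in cKO.

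In the antigen presentation pathway of MHC class I, which interferon also raises, 2 of 12 genes tested were called higher and 0 lower. Of all genes tested, 2.88% were called higher and 1.16% lower. The median of the 12 was 0.74, and in 7 both cKO libraries lay above every control, beside 14.5% of all genes tested. H2-K1, a class I heavy chain, was at 1.63, 0.616 and 1.22 FPKM in controls and at 3.43 and 2.02 FPKM in cKO (log2 difference 1.21, adjusted p = 0.302, limma). B2m, its light chain, was at 9.50, 10.1 and 21.1 FPKM in controls and at 26.6 and 25.9 FPKM in cKO (log2 difference 1.05, adjusted p = 0.229, limma). Neither passed the adjusted threshold, although the groups did not overlap.

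**Figure D4:**
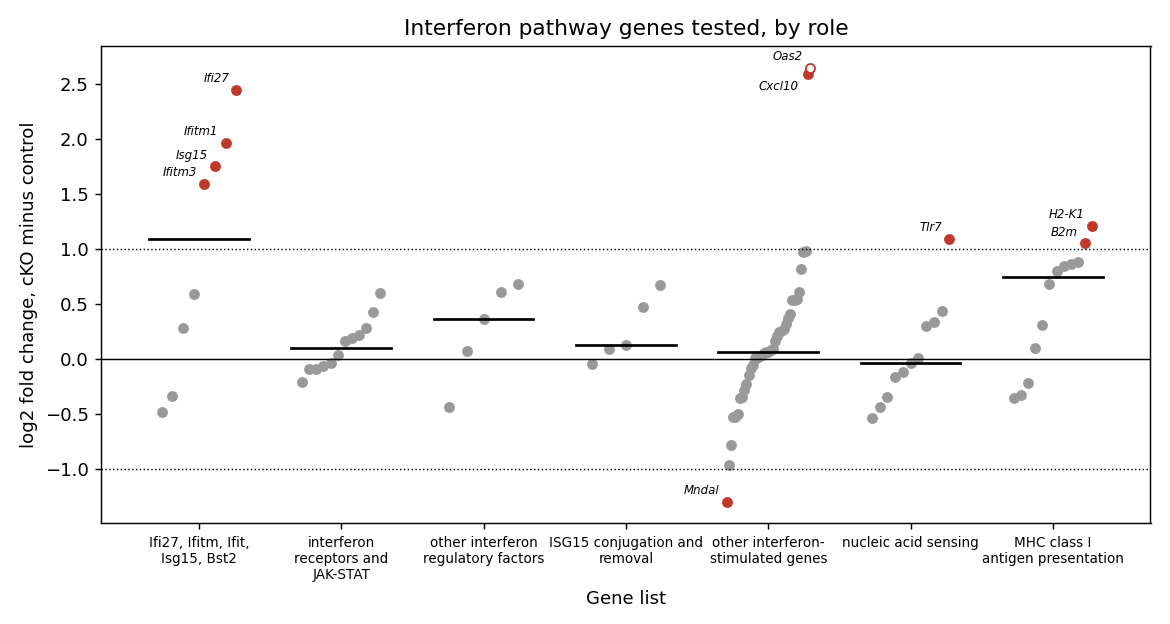
Log2 difference (cKO minus control) of each gene tested in the group and in 6 lists of interferon pathway genes, with called genes in red and named, an open symbol for a gene listed at 0 in all libraries of 1 group (Oas2, whose height depends on the pseudocount), and the median of each list as a bar. The medians are 1.09 for the group, 0.06 for the other interferon-stimulated genes and 0.74 for MHC class I.

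The genes whose pattern over the 5 libraries was most like that of the group were Tmem185b, Gpr52, Angel1, Vsnl1 and Csf1, out of 12080 genes that averaged 1 FPKM or more. Their Pearson correlations with the mean of the standardized profiles of the 8 genes lay between 0.992 and 0.999 over only 5 libraries, which differ in depth and genotype at once, and they are given as a description. The likeness concerns the shape and not the size, since Tmem185b ran from 9.36 to 11.3 FPKM and its log2 difference was 0.17. The mean profile was highest in MG18 (0.54 SD) and lowest in MG16 (-0.53 SD).

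Interferon-induced genes are expressed unevenly across the cells of a cortex, so markers of vessels, microglia, meninges and other cells were measured beside them. The summed level of 14 endothelial markers was 110.04 to 156 FPKM in controls and 130 to 139 FPKM in cKO, with 0 of 14 called. Of these 14, 11 had a positive log2 difference, with a median of 0.39 against -0.02 over all genes tested. For 15 markers of microglia and macrophages the sum was 41.7 to 81.5 FPKM in controls and 78.4 to 86.7 FPKM in cKO. Of these, 0 of 15 were called, with a median log2 difference of 0.49. The log2 difference was positive in 11 and negative in 4, the lowest being that of Aif1 at -0.55. In 4 of these 15 both cKO libraries lay above every control, beside 14.5% of all genes tested: Csf1r, Cx3cr1, Trem2 and C1qa. Cx3cr1, a chemokine receptor of microglia, was at 2.22, 2.07 and 1.53 FPKM in controls and at 3.94 and 3.26 FPKM in cKO (log2 difference 0.87, adjusted p = 0.238, limma). The part of microglia in the levels of the interferon-induced genes was not tested. Pericyte and smooth muscle markers stood at 46.0 to 52.9 FPKM in controls and 47.0 to 55.5 FPKM in cKO. Of 7 tested, 1 was called higher (Tagln, which passed the filter only through the cKO libraries), beside 2.88% of all genes tested. Of these 7, 6 had a positive log2 difference, with a median of 0.35. In 3 of 14 endothelial and 3 of 7 pericyte markers both cKO libraries lay above every control, beside 14.5% of all genes tested. In each of these 3 lists the sums of the groups overlapped.

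The summed markers of meningeal fibroblasts did not overlap between the groups. Their sum was 6.19 to 8.45 FPKM in controls and 16.9 to 18.3 FPKM in cKO. Of the 9 markers, 3 were called higher (Crabp2, Col1a1 and Lum), beside 2.88% of all genes tested. The log2 difference was positive in 8 of the 9, with a median of 0.73. In 3 of the 9 both cKO libraries lay above every control and in 1 below, beside 14.5% and 16.3% of all genes tested. Crabp2, a retinoic acid binding protein, was at 0.629, 0.0721 and 0.757 FPKM in controls and at 4.22 and 5.29 FPKM in cKO (log2 difference 3.34, adjusted p = 0.0344, limma). The other markers were less even. Col1a1 was at 0.203 to 0.816 FPKM in controls and at 0.663 and 3.19 FPKM in cKO, so that only MG19 was high, whereas Dcn was at 6.90 FPKM in MG18 and 0.997 FPKM in MG19, against 0.906 to 1.66 FPKM in controls. Col3a1 and Foxc1 overlapped between the groups, and Slc6a13 was lower in both cKO libraries than in every control. The part of meningeal cells in the levels of Ifi27, Ifitm1 and Ifitm3 was not tested.

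The remaining lists are given in the same way, beside 2.88% of all genes tested called higher and 1.16% lower. The sum of markers of T cells, B cells and neutrophils was 1.38 to 5.23 FPKM in controls and 5.76 to 5.91 FPKM in cKO, where Cd3e, Cd3g, Cd4 and Cd8a were listed at 0 in each library and S100a8, a neutrophil gene, was called higher (0.598 to 2.08 FPKM in controls, 4.23 and 4.70 FPKM in cKO). The only other gene of that list tested, S100a9, was at 0.778 to 3.03 FPKM in controls and at 1.53 and 1.21 FPKM in cKO (log2 difference 0.12). Markers of ventral telencephalon and interneurons summed to 57.7 to 62.5 FPKM in controls and 76.9 to 95.04 FPKM in cKO. Of 11 tested, 2 were called higher, Gsx2 and Isl1, the latter past the filter only through the cKO libraries. All 11 log2 differences were positive, and in 7 both cKO libraries lay above every control, beside 14.5% of all genes tested. Markers of dorsal telencephalon summed to 1097 to 1436 FPKM in controls and 943 to 980 FPKM in cKO, with 0 of 12 called. In 5 of the 12 both cKO libraries lay below every control and in 1 above, beside 16.3% and 14.5% of all genes tested. Erythroid markers summed to 598 to 924 FPKM in controls and 452 to 512 FPKM in cKO (1 of 8 higher and 1 lower, the near-identical copies Hba-a1 and Hba-a2), and those of choroid plexus to 0.616 to 1.04 FPKM in controls and 0.0549 to 0.629 FPKM in cKO (1 of 2 tested lower, Ttr). Their part in the levels of the interferon-induced genes was not tested either.

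**Figure D5:**
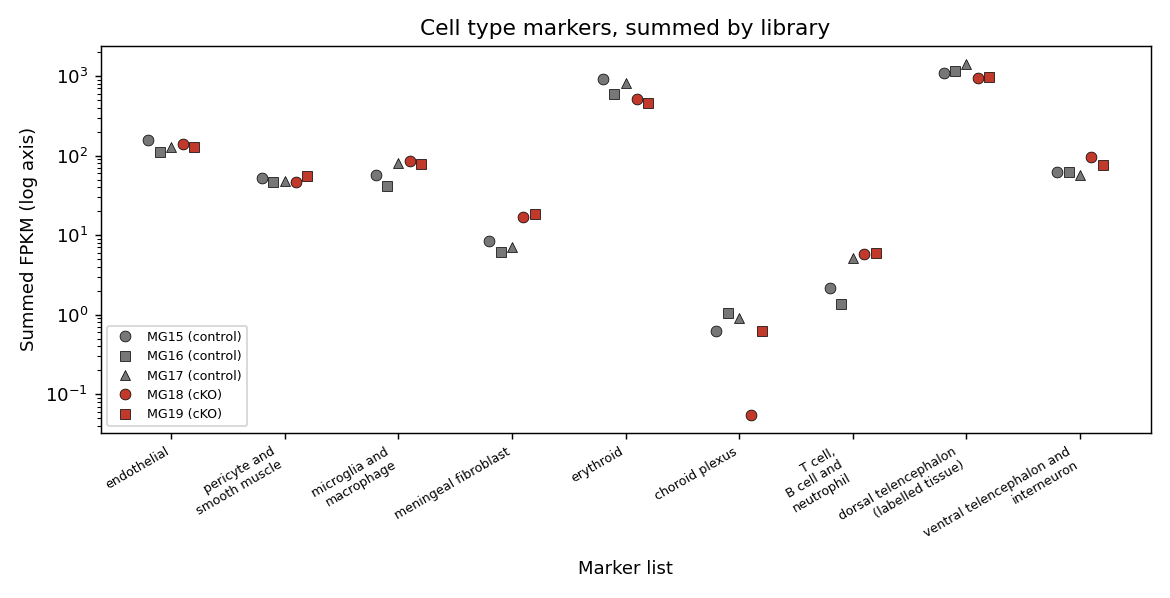
Summed FPKM of each list of cell type markers in each library, on a log axis, with controls in grey and cKO in red. The endothelial, pericyte and microglial sums overlap between the groups, while the meningeal sum is 6.19 to 8.45 FPKM in controls and 16.9 to 18.3 FPKM in cKO.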

How the data were processed

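Paired, strand-specific reads were mapped by the authors to mm10 with TopHat2. Duplicated, poorly aligned, improperly paired and multiply mapped reads were removed, and FPKM values per gene and library were computed with Cuffdiff and deposited as 1 table (tool versions: not given in the sources used here). FPKM is not a count, so no count model was used.

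From the deposited FPKM, log2(FPKM + 0.1) was fitted with limma 3.58.1 (R 4.3.3; lmFit, and eBayes with the trend option), cKO against control, 3 and 2 libraries, with no covariate and Benjamini-Hochberg adjustment over 14697 genes that averaged 0.1 FPKM or more. Small RNAs were left out (1227 names, 58 of them above this filter). Each of the 5 columns was matched to its library by name. The script was tested on simulated data. Genes named outside the group are those past the thresholds in each list (at most 8), or the 2 with the highest mean where fewer than 2 passed; Mx1, Rsad2, the neighbouring genes, Col3a1, Foxc1, Slc6a13, Dcn, S100a9, the microglial genes, Ifi27l2a, Ifi27l2b, the other paralogs and Neurod6 were named after their values were seen. Values of some genes of the lists are not reported here. The group and the lists were chosen with earlier results of these data known.

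Library depth was estimated from steps between low FPKM values, at about 42000000, 16000000 and 10000000 fragments in controls and 8100000 and 9800000 in cKO. Only 72.4 to 84.7% of the low values lay within 0.25 of a whole fragment, so these numbers are rough, and fragment numbers per gene use the longest transcript. Gene positions are from GENCODE (GRCm38) and promoters from RefSeq (GRCm38.p6). Alternatives were another pseudocount, filter, scaling or variance model, and each library left out. Python 3.11.15 was used.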

Additional observations from a re-analysis of the deposited data

How the results depend on the processing

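Of the 4 genes called, Ifi27 was called under every alternative tried, while 2 of the group (Ifi27 and Ifitm3) were called with a pseudocount of 1 FPKM or a filter at a mean of 1 FPKM. This filter leaves 2 genes with a positive difference, against 6, because fewer are tested. The other interferon-stimulated genes then gave 0 higher and 0 lower calls under both settings, and 2 lower with a pseudocount of 0.01 FPKM, with no filter or with quantile normalization. Over all genes, 154 were higher and 24 lower with a pseudocount of 1 FPKM, 172 and 63 (100 and 14 at an adjusted p) with the filter at 1 FPKM, and 287 were lower with quantile normalization, against 423 and 171 (161 and 24 adjusted). With each library left out, calls in the group ranged from 2 to 4 (adjusted 0 to 1), positive differences from 5 to 6, other interferon-stimulated genes from 2 to 4 higher and 0 to 2 lower, and all genes from 383 to 585 higher and 154 to 309 lower (adjusted 47 to 130 and 2 to 20). The difference of Ifit3 was -0.011 with quantile normalization and ranged from -0.053 (without control replicate 2, MG16) to 0.48 with each library left out. The cause was not tested beyond the number of genes or libraries that a setting removes. No paired analysis was possible because the labels give no replicate numbers that the groups share. Depth limits Ifit1, Ifit3, Isg15, Irf7, Ifitm1 and Bst2, which rest on few fragments in most libraries. Ifi27 rests on an estimated 9.49 and 8.79 fragments in the controls MG16 and MG17.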
